A study of Mus musculus with 11 samples.

Results

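Read counts of 10 genes that flank the trace amine-associated receptor (Taar) gene cluster on mouse chromosome 10 were compared between mice with and without that cluster. The genes were taken by name and position from the list Eya4, Slc18b1, Vnn3, Vnn1, Stx7, Moxd1, Enpp1, Enpp3, Med23 and Akap7. All 10 were found among the 24421 entries of the count table, and all 10 were among the 16574 genes with enough counts to be tested. The question was whether removal of the cluster was accompanied by a change in its intact neighbours, and whether such a change varied with distance from the deletion.

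The data were RNA-seq counts of the whole main olfactory epithelium (MOE), the nasal tissue that holds the olfactory sensory neurons (OSNs). Of 11 libraries, 3 came from wild type mice, 4 from heterozygous mice with the cluster deleted on a single chromosome (TAAR cluster +/-) and 4 from homozygous mice with it deleted on both (TAAR cluster -/-). The labels give C57BL/6 as strain and postnatal day 1 to 2 as age for every library, with no further allele or treatment. The reporting notes of the study describe an older age and a mixed background for this line, and which applies was not settled here. The study used mice of both sexes, and the sex and litter behind each library are not given in the sources used here, nor whether a library held 1 animal or several, so p-values measure only the spread between these libraries. Because the tissue was taken whole, fewer cells of a type and less RNA per cell cannot be told apart.

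The deleted cluster runs from Taar2 to Taar9, which encode receptors for volatile amines that are expressed in OSNs, whereas Taar1, the member of the family that is not an olfactory receptor, lies just outside. In the study an enhancer that lies between Taar1 and Taar2 is left on the deleted chromosome, and a further enhancer inside the cluster is lost. Enhancers act on promoters over a distance, within stretches of chromatin that contact each other more than their surroundings. A gene beside a deletion can therefore meet regulatory elements that were further away before, or lose elements that it used. The neighbours of the cluster have unrelated functions, ranging from vesicle transport and membrane traffic to purine turnover at the cell surface and transcription.

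On the mm10 (GRCm38) assembly with the GENCODE annotation, the interval from the outer ends of Taar2 and Taar9 was chr10:23938572-24109534, or 171 kb. Distances below run from the nearest edge of a gene to that interval on the intact chromosome, not to the breakpoints. On the side of Taar2, Vnn1 (chr10:23894688-23905343, plus strand) was 33.2 kb away, Vnn3 (chr10:23851462-23869843, plus) 68.7 kb, Slc18b1 (chr10:23796986-23827968, plus) 111 kb and Eya4 (chr10:23102963-23350786, minus) 588 kb. On the side of Taar9, Stx7 (chr10:24149302-24190222, plus) was 39.8 kb away, Moxd1 (chr10:24223517-24302790, plus) 114 kb and Enpp1 (chr10:24637914-24712159, minus) 528 kb. Further out on that side were Enpp3 (chr10:24772406-24842823, minus) at 663 kb, Med23 (chr10:24869986-24913681, plus) at 760 kb and Akap7 (chr10:25169090-25307870, minus) at 1060 kb. All are protein coding, and the counts are of reads over their exons. Med23 shares 107 exon bases with the small nuclear RNA Gm23410 on its own strand and Akap7 shares 47 with the antisense gene Gm40617, and neither of those genes is in the count table.

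Reads of these genes were largely distinct from those of other genes. No stretch of 51 bases of Vnn1, Vnn3, Moxd1 or Akap7 transcripts occurred in transcripts of another gene, and among the rest the shared proportion was highest in Med23, at 1.85%, with Gm23410 as the most frequent partner. Vnn1 and Vnn3, which are paralogues, shared none with each other.

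Promoter windows, from 250 bases before to 50 after the start of the gene, were listed by RefSeq (GRCm38.p6) for 8 of the 10 genes, with Vnn1 and Med23 unmatched. Those of the 4 listed genes nearest to the deletion are shown because they are the intact starts on either side of it. They are written from the 5′ end on the strand of the gene, and capitals mark motif matches on either strand. The TATA box was searched as TATAAA. The GC box, a site of the Sp1 family, was searched as GGGCGG. The box named for its letters was searched as CCAAT. The core bound by homeodomain proteins was searched as TAATTA. No matches overlapped.
Vnn3, chr10:23851212-23851511, plus strand: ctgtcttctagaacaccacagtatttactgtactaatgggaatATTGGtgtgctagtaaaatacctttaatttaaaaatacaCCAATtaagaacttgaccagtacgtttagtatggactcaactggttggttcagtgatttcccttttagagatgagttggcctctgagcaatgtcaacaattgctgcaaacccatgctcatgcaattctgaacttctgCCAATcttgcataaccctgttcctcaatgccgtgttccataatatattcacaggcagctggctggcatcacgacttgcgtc
Slc18b1, chr10:23796736-23797035, plus strand: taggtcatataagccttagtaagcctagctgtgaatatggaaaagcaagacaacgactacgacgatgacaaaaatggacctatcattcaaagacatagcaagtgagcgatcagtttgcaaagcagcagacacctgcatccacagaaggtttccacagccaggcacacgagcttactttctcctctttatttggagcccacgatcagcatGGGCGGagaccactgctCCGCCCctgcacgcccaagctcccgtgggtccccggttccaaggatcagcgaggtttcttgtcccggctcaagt
Stx7, chr10:24149039-24149338, plus strand: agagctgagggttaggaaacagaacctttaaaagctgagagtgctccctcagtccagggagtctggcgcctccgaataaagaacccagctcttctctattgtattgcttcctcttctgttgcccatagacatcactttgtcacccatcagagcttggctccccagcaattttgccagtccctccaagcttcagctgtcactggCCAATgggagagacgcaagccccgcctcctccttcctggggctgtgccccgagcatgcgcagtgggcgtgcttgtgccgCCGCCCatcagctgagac
Moxd1, chr10:24223267-24223566, plus strand: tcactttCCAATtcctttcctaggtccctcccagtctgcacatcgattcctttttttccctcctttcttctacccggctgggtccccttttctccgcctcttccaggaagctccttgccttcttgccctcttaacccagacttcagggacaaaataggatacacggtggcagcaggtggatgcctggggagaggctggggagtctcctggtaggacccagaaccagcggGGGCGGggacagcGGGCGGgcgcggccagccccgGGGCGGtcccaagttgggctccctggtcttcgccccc

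The window of Vnn3 differed from the other 3 in base composition, with 41% G or C and 4 CpG dinucleotides, against 51.7% to 61.7% and 9 to 13 in the others. That of Enpp3, which is not shown, was close to Vnn3, with 40.7% and 5. The median of all 32851 windows was 52.7% and 7. Vnn3 held 3 CCAAT matches, Slc18b1 held 2 GC box matches at positions -41 and -24 from the start, Stx7 held 1 CCAAT and 1 GC box match, and Moxd1 held 1 CCAAT and 3 GC box matches. Of all windows, 37.4% held CCAAT and 35.7% the GC box. None of the 8 genes had TAATTA, which 5.29% of windows held, and only Enpp3 had TATAAA, which 13.6% held. A match is a description of letters and not of a bound site.

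The deleted genes were examined first. The sum of the 14 olfactory Taar genes was 94, 87 and 119 counts in the wild type libraries, 96, 89, 68 and 31 in the heterozygous ones and 1, 1, 2 and 3 in the homozygous ones. The homozygous libraries thus stood apart as labelled, while the heterozygous ones overlapped wild type, so that the sum does not check their label. Taar1, at 17.1 kb the nearest gene on the side of Taar2, had 0 counts in each of the 11 libraries (a count of 0 allows up to 3). Totals were 9239866 to 14632525 counts per library. Homozygous replicate 2 stood apart, since 25.8% of its counts belonged to the ribosomal RNA gene Rn45s against at most 0.786% elsewhere, and its scaling factor was 0.756. On the first principal component, with 41.6% of the variance, the libraries formed a set of 6 (wild type 1 and 2, heterozygous 3 and 4, homozygous 1 and 2, called set 1) and a set of 5 (the rest, set 2), which cut across genotype. The sets were defined from these counts, are of unknown origin and are used as a description. Of the flanking genes 3 of 10 (Enpp3, Med23 and Slc18b1) had ranges of CPM (counts scaled to a common library total with TMM factors) that did not overlap between the sets (background 26.9%). All 8 markers of mature OSNs were detected, with a summed level of 1297 to 2283 CPM in wild type, 1369 to 1924 in heterozygous and 1251 to 1603 in homozygous libraries. The 4 markers of sustentacular cells, the supporting cells of the epithelium, were detected too, at 1507 to 2133, 1054 to 1712 and 915 to 1803 CPM in the same order. Those of horizontal basal cells, the reserve stem cells of the epithelium, 3 of 3 detected, ran from 52.0 to 138, from 67.2 to 156 and from 67.3 to 136 CPM. Those of skeletal muscle, 8 of 8 detected, ran from 5.93 to 57.8, from 15.1 to 1716 and from 19.9 to 816 CPM. The medians of the first 2 lists were highest in wild type (1912 and 1887 CPM, against 1621 and 1460 in heterozygous and 1581 and 1343 in homozygous libraries), as was that of the third (123, against 69.7 and 79.4), and that of muscle was lowest there (16.8, against 299 and 274). Their part in the levels of the flanking genes was not tested.

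**Figure D1:**
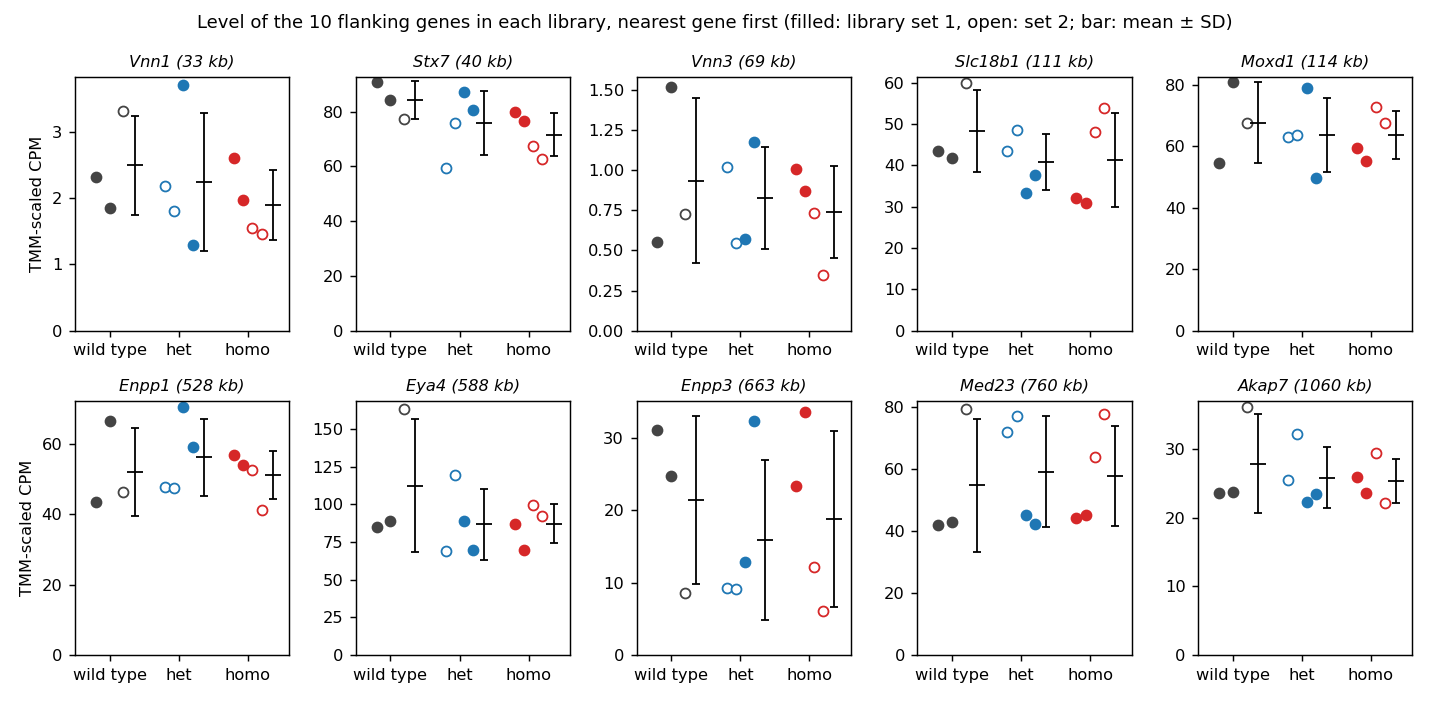
Level of each flanking gene in every library (y axis, TMM-scaled CPM, from 0) by genotype (x axis), with genes ordered by distance from the deleted interval. Each point is 1 library, filled for set 1 and open for set 2, and the bar beside each group is the mean with the SD. For each of the 10 genes the 3 genotypes overlap, and for Med23, Enpp3 and, by a narrow margin, Slc18b1 the filled and open points separate.

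Per length of transcript (RPKM, the same CPM divided by the exon length in kb), the genes spanned a wide range in the wild type MOE. Moxd1 was highest at 21.2 ± 4.14 RPKM (SD, n = 3), followed by Stx7 at 18.8 ± 1.54, Slc18b1 at 14.8 ± 3.08, Eya4 at 11.9 ± 4.70 and Med23 at 8.20 ± 3.20. Akap7 had 6.37 ± 1.64, Enpp1 5.08 ± 1.22 and Enpp3 3.57 ± 1.93 RPKM. The vanins were lowest, Vnn1 at 1.03 ± 0.31 and Vnn3 at 0.516 ± 0.285 RPKM. Each gene overlapped the next in this order, with a single gap between Enpp3 and Vnn1. The 2 genes with the fewest reads were thus also the nearest on the side of Taar2, with 12 to 41 counts per library for Vnn1 and 4 to 19 for Vnn3, whereas the other 8 had 70 to 2024.

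In homozygous against wild type mice, 9 of the 10 flanking genes had a lower level, against 47.2% of all genes tested. Their median log2 fold change was -0.21, against 0.015 over all genes, and the values ran from -0.40 (Vnn1) to 0.078 (Med23). By the ratio of mean CPM, 5 of the 10 were lower within set 1 and 7 within set 2, where wild type is 1 library. With the library set as a covariate 8 of the 10 were lower. None passed the test at an adjusted p-value of 0.05 (background 0%, 0 of 16574 genes with edgeR), and none had an unadjusted p under 0.05 (background 3.02%, 500 genes). The lowest unadjusted p was 0.145, for Stx7, and the lowest adjusted p was 0.996. No gene had a range of CPM apart from that of wild type (background 2.48% lower and 2.51% higher). The 95% intervals left out a halving for 7 of the 10 genes and a doubling for 9. The adjusted edgeR test, with 0 genes called, did not call the deleted Taar genes either, although their sum fell to 1 to 3 counts. Its lack of calls among the flanking genes therefore does not show that they were unchanged. DESeq2 on the same counts called 8 genes, of which 0 were flanking genes.

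In heterozygous against wild type mice, 8 of the 10 were lower (background 49.6%), with a median log2 fold change of -0.15, against 0.0018 over all genes. None passed the test (background 0%) and none had an unadjusted p under 0.05 (background 2.24%, 372 genes), and DESeq2 called 3 genes, none of them flanking. The lowest unadjusted p was 0.173, for Eya4. The ranges overlapped for every gene (background 1.1% lower and 1.41% higher). This comparison uses the same wild type libraries as the one before, so the common direction is not a second measurement of it. In homozygous against heterozygous mice, which do without the wild type libraries but share the others, 7 of the 10 were lower (background 48.2%) with a median of -0.031, none had an unadjusted p under 0.05 (background 0.561%), and again no range was apart (background 0.302% and 0.296%). Fitted as a slope per deleted copy over all libraries, 9 were negative (background 47%), with a median of -0.095 per copy, and none had an unadjusted p under 0.05 (background 3.1%).

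These counts and medians depended on single libraries. Without wild type replicate 3, 7 of 10 genes were lower in homozygous mice, with a median of -0.097, and 5 of 10 in heterozygous mice, with a median of -0.031. In homozygous mice 7 of 10 were lower without wild type replicate 2 (median -0.16) and 8 of 10 without homozygous replicate 4 (median -0.12). The slope was negative for 7 of 10 genes without wild type replicate 3 (median -0.052) or 2 (-0.071) and for 8 of 10 without homozygous replicate 4 (-0.058). In homozygous against heterozygous mice the count ran from 5 of 10 (without heterozygous replicate 2, median 0.023, or homozygous replicate 1, -0.016) to 9 of 10 (without homozygous replicate 3, -0.078). The median there was -0.0077 without heterozygous replicate 3, -0.062 without homozygous replicate 2 and -0.11 without heterozygous replicate 4. The numbering of the libraries also mattered to the whole table. With the replicate number as a block and only the homozygous and wild type libraries, an alternative chosen after seeing the data, 39 of 16163 genes passed an adjusted p of 0.05 (background 0.241%) in place of 0. None of the 9 flanking genes tested in that fit was among them, and 2 of the 9 had an unadjusted p under 0.05 (Slc18b1 and Eya4, background 6.31%). Of the 3 homozygous and wild type pairs with the same number, Slc18b1 and Stx7 were lower in the homozygous library each time, which held for 13.3% of all genes. With the library set as a covariate, only Slc18b1 had an unadjusted p under 0.05, in homozygous mice (background 6.83%), in heterozygous mice (4.55%) and for the slope (7.06%).

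**Figure D2:**
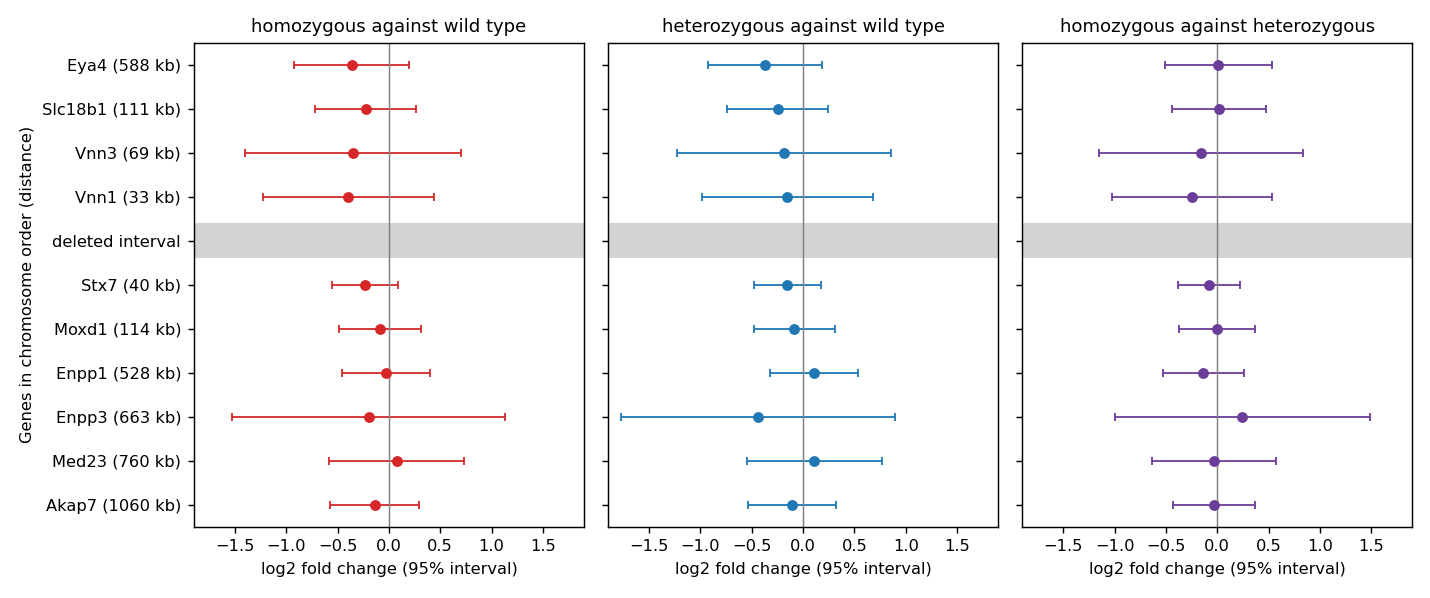
Log2 fold change of the 10 flanking genes (x axis, point, with its 95% interval as the bar) in the order of the chromosome (y axis, with the distance from the deleted interval, drawn as a grey band) for the 3 comparisons. All intervals include 0, and 9, 8 and 7 of the 10 points lie below 0 in the comparisons from left to right.

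Slc18b1 and Stx7 serve vesicles and endosomes. Slc18b1 encodes a vesicular transporter of polyamines. Its level was 43.4, 41.7 and 59.8 CPM in wild type, 43.4, 48.6, 33.2 and 37.7 in heterozygous and 32.1, 31.0, 48.1 and 53.9 in homozygous libraries. In homozygous mice 2 of 4 libraries were below all wild type ones and the other 2 were within their range. The log2 fold change was -0.23 (SE 0.23, unadjusted p = 0.338) for homozygous and -0.25 (SE 0.23, unadjusted p = 0.298) for heterozygous against wild type. The log2 ratio of the homozygous to the wild type mean was -0.43 within set 1 and -0.23 within set 2, where wild type is a single library (replicate 3). Without that library the log2 fold change was -0.042 in homozygous and -0.062 in heterozygous mice. In homozygous mice it was -0.12 without homozygous replicate 1 or 2 and -0.38 without homozygous replicate 4. Within each set all libraries of both genotypes with the deletion lay below the wild type ones, at 31.0 to 37.7 against 41.7 and 43.4 CPM in set 1 and 43.4 to 53.9 against 59.8 in set 2. Slc18b1 was the only gene of the 10 with this order, which 1.82% of all genes had, and it was looked for after its values were seen. Its level was also higher in set 2 as a whole, by a log2 difference of 0.52, and the sets did not overlap. With the library set as a covariate the unadjusted p was 0.0108 for homozygous (adjusted p = 0.705) and 0.0112 for heterozygous mice (adjusted p = 0.999). With the block described above it was 0.00876 (adjusted p = 0.555), at a log2 fold change of -0.41.

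Stx7 encodes a syntaxin of late endosomes, where it takes part in membrane fusion. It had 91.0, 84.3 and 77.3 CPM in wild type libraries, 59.6, 75.7, 87.2 and 80.7 in heterozygous and 79.8, 76.6, 67.3 and 62.8 in homozygous ones. Of the homozygous libraries 3 of 4 were below every wild type library, and the fourth lay within their range. In each of the 3 pairs of the same number the homozygous library was the lower, at 79.8 against 91.0, 76.6 against 84.3 and 67.3 against 77.3 CPM. The log2 fold change was -0.23 in homozygous mice (95% interval -0.56 to 0.093, unadjusted p = 0.145, adjusted p = 0.996), or 0.851 times the wild type level with an interval of 0.679 to 1.07. It was -0.15 (interval -0.48 to 0.17) in heterozygous mice and -0.081 (interval -0.38 to 0.22) in homozygous against heterozygous mice. With 1 library left out these ran from -0.23 to -0.052 and from -0.18 to -0.0069, with heterozygous replicates 1 and 3 at the ends. Stx7 was lower in homozygous mice in both sets, at 78.2 against 87.6 CPM in set 1 and 65.0 against 77.3 in set 2. Over 18 alternatives of processing its value ran from -0.29 to -0.17, with an adjusted p of 0.711 to 1.

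Other members of these families did not pass the test. Of the vesicular amine transporters Slc18a1, Slc18a2 and Slc18a3, 2 of 3 were lower in homozygous mice, with a median log2 fold change of -0.082. Slc18a3, the transporter of acetylcholine, was the exception, with 0, 1 and 1 counts in wild type, 1, 14, 1 and 23 in heterozygous and 0, 12, 0 and 13 in homozygous libraries, so that its genotypes overlapped. Of 17 syntaxins and endosomal SNARE genes 16 were tested, of which 6 were lower, with a median of 0.010. None had an unadjusted p under 0.05 in any of the comparisons.

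Vnn1 and Vnn3 encode vanins, pantetheinases at the cell surface that release pantothenate, the precursor of coenzyme A. Vnn1 had 25, 23 and 41 counts in wild type, 32, 23, 39 and 12 in heterozygous and 31, 18, 21 and 17 in homozygous libraries. Scaled, these were 2.32, 1.84 and 3.31 CPM, then 2.18, 1.80, 3.70 and 1.28, and last 2.61, 1.96, 1.54 and 1.46. Both genotypes with the deletion overlapped wild type, and 2 of 4 homozygous libraries were below it. Its log2 fold change in homozygous mice, -0.40, was the lowest of the 10, with an interval of -1.23 to 0.44 that includes both a halving and no change. Without wild type replicate 3 it was -0.13. The log2 ratio of homozygous to wild type means was 0.14 within set 1 and -1.14 within set 2, where wild type is a single library.

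Vnn3 had 6, 19 and 9 counts in wild type, 15, 7, 6 and 11 in heterozygous and 12, 8, 10 and 4 in homozygous libraries. Its level was 0.516 ± 0.285 RPKM (SD) in wild type, 0.458 ± 0.176 in heterozygous and 0.409 ± 0.158 in homozygous mice, so that each difference was smaller than the SD of a genotype. The log2 fold change was -0.35 in homozygous mice (interval -1.40 to 0.70), and without wild type replicate 2 it became 0.19. Of the related gene Btd and the 7 genes of coenzyme A synthesis, 5 of 8 were lower in homozygous mice with a median of -0.036, and none had an unadjusted p under 0.05. The intervals of both vanins in homozygous mice include a halving.

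Moxd1 and the ectonucleotidases are enzymes of membranes. Moxd1 encodes a relative of dopamine beta-hydroxylase, a copper-dependent monooxygenase of the endoplasmic reticulum. It had 54.5, 81.0 and 67.6 CPM in wild type, 63.0, 63.5, 79.1 and 49.6 in heterozygous and 59.5, 55.1, 72.8 and 67.6 in homozygous libraries. All homozygous libraries lay inside the wild type range. Its log2 fold change was -0.087 in homozygous (interval -0.48 to 0.31) and -0.085 in heterozygous mice (interval -0.48 to 0.31). Moxd1 and Slc18b1 lie nearly the same distance from the deletion on opposite sides, and their intervals overlapped. Of its relatives Dbh, Moxd2 and Pam only Pam was tested, with a log2 fold change of 0.045.

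Enpp1 hydrolyses ATP outside the cell to pyrophosphate, an inhibitor of mineralisation. It had 43.6, 66.5 and 46.3 CPM in wild type, 47.8, 47.4, 70.6 and 59.3 in heterozygous and 56.9, 54.0, 52.7 and 41.1 in homozygous libraries. Its log2 fold change was the nearest to 0 of the 10 in homozygous mice, at -0.028 (interval -0.46 to 0.40), and 0.11 in heterozygous mice (interval -0.32 to 0.54). Within both sets the homozygous and wild type means were close, at 55.4 and 55.0 CPM in set 1 and 46.9 and 46.3 in set 2. The 8 markers of cartilage and bone, tissue around the epithelium, summed to 4746 to 12138 CPM in wild type, 6112 to 12726 in heterozygous and 7795 to 9628 in homozygous libraries. Their part in the level of Enpp1 was not tested.

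Enpp3 encodes a related enzyme that degrades nucleotides at the cell surface. It had 31.0, 24.8 and 8.56 CPM in wild type, 9.25, 9.10, 12.9 and 32.3 in heterozygous and 23.4, 33.6, 12.1 and 6.02 in homozygous libraries. These values followed the library sets and not genotype, with 12.9 to 33.6 CPM in the 6 libraries of set 1 and 6.02 to 12.1 in the 5 of set 2. The mean of set 2 was lower by a log2 difference of -1.53, a size at the 98.1 percentile of all genes tested. The interval in homozygous mice was the widest of the 10, from -1.53 to 1.13 around a log2 fold change of -0.20, and within the sets homozygous and wild type means were 28.5 and 27.9 CPM and 9.06 and 8.56 CPM. Of 8 other genes of nucleotide and pyrophosphate turnover, 6 were lower in homozygous mice, with a median of -0.13, and none had an unadjusted p under 0.05.

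Eya4 and Med23 act in transcription. Eya4 encodes a coactivator with phosphatase activity that works with homeodomain proteins in the development of sense organs. Its level was 84.9, 88.8 and 163 CPM in wild type, 69.1, 119, 89.2 and 69.8 in heterozygous and 86.7, 70.0, 99.9 and 92.6 in homozygous libraries. A single library, wild type replicate 3, was above all others, and 1 of 4 homozygous libraries was below the other wild type ones. The log2 fold changes were -0.36 in homozygous (interval -0.92 to 0.20, unadjusted p = 0.182) and -0.37 in heterozygous mice (interval -0.93 to 0.19, unadjusted p = 0.173). Without wild type replicate 3 they were 0.0081 and 0.00053. Without heterozygous replicate 2 the heterozygous value was -0.56, with an unadjusted p of 0.0466 (background 2.05%), and with the block described above the homozygous value had one of 0.0471 (adjusted p = 0.786).

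Med23 encodes a subunit of the tail of Mediator, which links transcription factors to RNA polymerase. It had 41.9, 43.1 and 79.6 CPM in wild type, 71.9, 77.1, 45.3 and 42.3 in heterozygous and 44.3, 45.4, 63.9 and 78.0 in homozygous libraries. As with Enpp3, but in the opposite direction, the values followed the library sets, with 41.9 to 45.4 CPM in set 1 and 63.9 to 79.6 in set 2. The spread within a set was small, and homozygous and wild type libraries averaged 44.9 and 42.5 CPM in set 1 and 70.9 and 79.6 in set 2. Its log2 fold change was 0.078 in homozygous (interval -0.58 to 0.74) and 0.11 in heterozygous mice (interval -0.55 to 0.77). The 29 other Mediator genes had a median of 0.0032 in homozygous mice, with 14 lower and none with an unadjusted p under 0.05. Among the marker lists of other cell types, that of ciliated cells of the respiratory epithelium was also apart between the sets. Its 4 genes, all detected, summed to 442 to 635 CPM in set 1 and 299 to 393 in set 2. By genotype they overlapped, with 333 to 555 in wild type, 325 to 591 in heterozygous and 299 to 635 in homozygous libraries, and their part in the levels of Enpp3 and Med23 was not tested.

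Akap7 anchors protein kinase A, the cyclic AMP-dependent kinase, at membranes. It was the most distant of the 10, with 23.6, 23.8 and 36.2 CPM in wild type, 25.4, 32.2, 22.3 and 23.4 in heterozygous and 26.0, 23.7, 29.5 and 22.1 in homozygous libraries. Except for wild type replicate 3, all libraries were between 22.1 and 32.2 CPM. The log2 fold change was -0.14 in homozygous (interval -0.57 to 0.29) and -0.11 in heterozygous mice (interval -0.54 to 0.32), and without wild type replicate 3 these were 0.095 and 0.12. Of 16 other anchoring and kinase subunit genes 15 were tested, of which 10 were lower in homozygous mice, with a median of -0.047. Of these, 2 of 15 had an unadjusted p under 0.05 in heterozygous mice (background 2.24%), in opposite directions. Akap5 averaged 12.6 CPM in wild type, 9.29 in heterozygous and 9.71 in homozygous libraries (log2 fold change -0.44 for heterozygous, unadjusted p = 0.0431, adjusted p = 1). Akap12 averaged 166, 226 and 202 CPM in the same order (0.45, unadjusted p = 0.0189, adjusted p = 1).

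**Figure D3:**
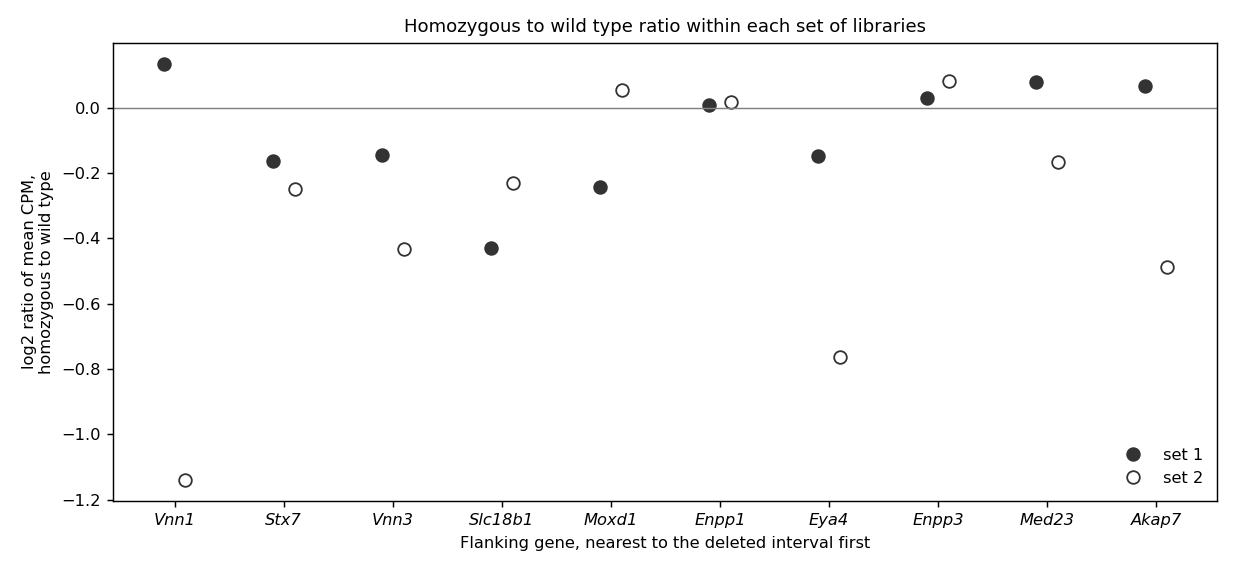
Log2 ratio of the mean CPM of homozygous to wild type libraries (y axis) for each flanking gene (x axis, nearest first), computed within set 1 (filled, 2 against 2 libraries) and within set 2 (open, 2 against 1). Stx7, Vnn3, Slc18b1 and Eya4 are below 0 in both sets, and the other 6 genes are not.

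No flanking gene, near or far, passed the adjusted test, and the order by distance is given as a description. Over the 10 genes the log2 fold change was lower nearer to the deletion in homozygous mice (Spearman rho with distance 0.624) and for the slope per deleted copy (0.673), with a rho of 0.176 in heterozygous mice. These genes share the same libraries and are not replicates. The rank order rests partly on the vanins, which are near and have few reads, and over the 8 genes with a mean over 10 CPM rho was 0.405 in homozygous and 0.143 in heterozygous mice. With 1 library left out these ran from 0 (without wild type replicate 2) to 0.524 and from -0.071 to 0.571. Leaving out 1 library at a time moved the value for homozygous mice between 0.115 and 0.624, with the low value reached without wild type replicate 2, and moved that for heterozygous mice between -0.212 and 0.467. For the slope it moved between 0.236, again without wild type replicate 2, and 0.673, and over the 8 genes above 10 CPM it was 0.405, with a range of 0.024 (without homozygous replicate 1) to 0.524. By side, the 4 genes before Taar2 had a median log2 fold change of -0.36 (from -0.40 to -0.23) in homozygous mice, and the 6 genes after Taar9 one of -0.11 (from -0.23 to 0.078). In heterozygous mice these medians were -0.22 and -0.097. Without wild type replicate 3 the medians of the 2 sides were close, at -0.088 and -0.097 in homozygous and -0.031 and -0.028 in heterozygous mice. Without wild type replicate 1 they were further apart, at -0.49 and -0.16 in homozygous and -0.38 and -0.085 in heterozygous mice. The homozygous medians were -0.41 and -0.074 without wild type replicate 2. The heterozygous ones were -0.25 and -0.025 without heterozygous replicate 4.

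The stretch was then widened to every gene around the interval. Within 2 Mb there were 20 tested genes, the 10 flanking genes included. In homozygous mice 15 of these 20 were lower, of which 9 were flanking genes. The genes other than the flanking ones lay on both sides of 0, with log2 fold changes from -0.28 to 0.60. Over the 20 genes the median was -0.11, and rho with distance was 0.268. Leaving out wild type replicate 3 gave 0.047 and leaving out replicate 1 of that genotype 0.496, the ends of the range over single libraries. In bins of distance the median log2 fold change was -0.16 over 8 genes within 0.5 Mb, -0.13 over 9 genes from 0.5 to 1.5 Mb, -0.0078 over 24 genes from 1.5 to 5 Mb and -0.052 over 134 genes from 5 to 20 Mb. It was 0.043 over 606 genes of chromosome 10 further away and 0.016 over 15657 genes of other chromosomes. The proportion of lower genes in these bins was 75%, 77.8%, 54.2%, 59.0%, 44.4% and 47.1%, and the 2 nearest bins consist mostly of the flanking genes. For heterozygous mice the medians of the nearest 3 bins were -0.12, -0.053 and 0.025.

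**Figure D4:**
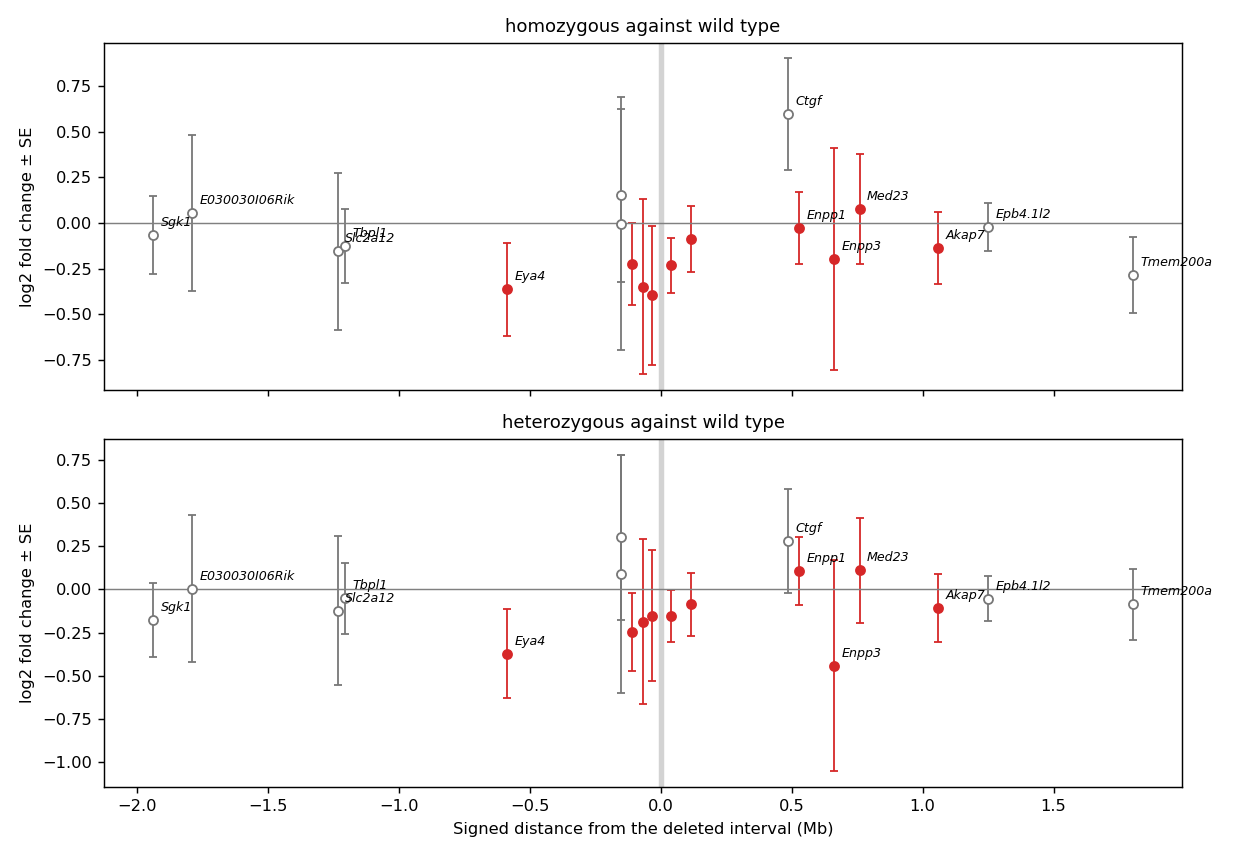
Log2 fold change with its SE (y axis) of tested genes within 2 Mb of the deleted interval, of which 1 is not drawn (x axis, signed distance in Mb, with the interval as the grey line at 0), filled red for the 10 flanking genes and open grey for others. The unlabelled red points near 0 Mb are, from left to right, Slc18b1, Vnn3, Vnn1, Stx7 and Moxd1, all below 0, and the unlabelled grey ones are Rps12 and Snord100.

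Among the other genes of that stretch Ctgf, a gene of matrix and growth signalling at 486 kb that was picked after its values were seen, had 174, 260 and 287 CPM in wild type. Its homozygous libraries, with 394, 422, 338 and 299 CPM, lay above these without overlap (background 2.51%). Its log2 fold change was 0.60 (unadjusted p = 0.0748, adjusted p = 0.996), and heterozygous libraries ran from 187 to 490 CPM.

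**Figure D5:**
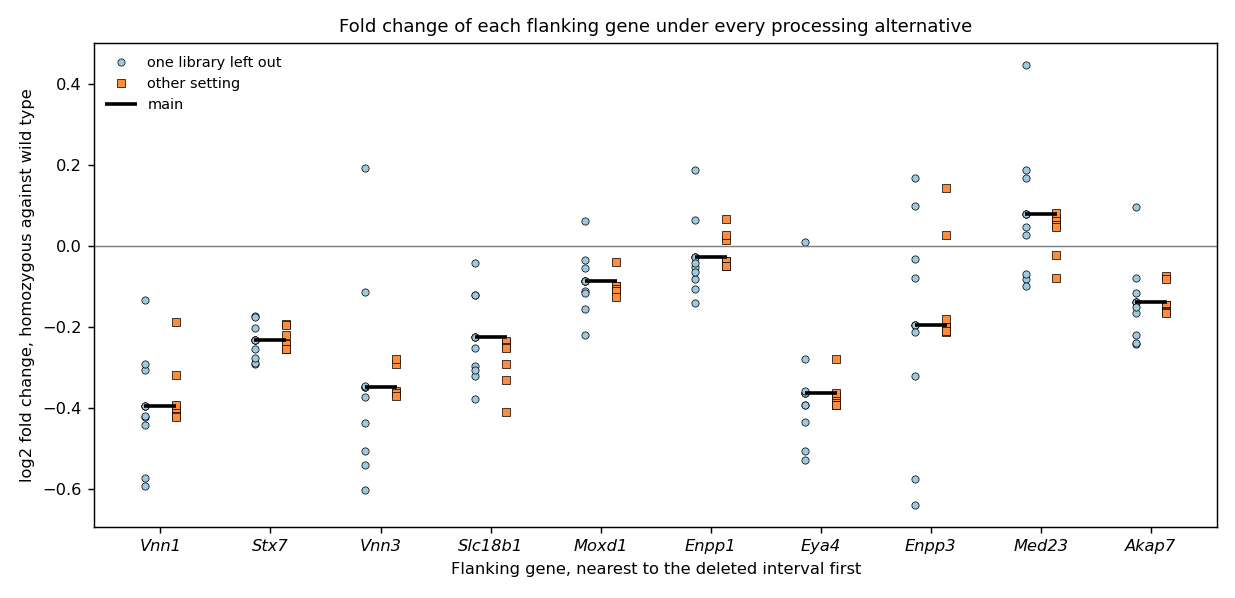
Log2 fold change in homozygous against wild type mice (y axis) of each flanking gene (x axis, nearest first) as reported (black bar), with 1 library left out (circles) and under each other processing alternative (squares). Vnn1, Stx7 and Slc18b1 stay below 0 throughout, and the other 7 genes cross 0 under at least 1 alternative.

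Across up to 18 alternatives of processing the values of Vnn1, Stx7 and Slc18b1 in homozygous mice were negative each time, from -0.59 to -0.13 for Vnn1, from -0.29 to -0.17 for Stx7 and from -0.41 to -0.042 for Slc18b1, with the values nearest to 0 of Vnn1 and Slc18b1 reached without wild type replicate 3, while those of the other 7 changed sign at least once. No flanking gene passed an adjusted p of 0.05 in any of the 677 values recomputed over the comparisons.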

How the data were processed

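RNA-seq was performed on the whole MOE of 3 wild type, 4 heterozygous and 4 homozygous TAAR cluster knockout mice. Per the labels, polyA selection and a kit that keeps strand were applied to total RNA, and each library was a column of its own, with 0 unmapped columns. The submitters' processing notes name Trimmomatic (version 0.36), HISAT2 (2.1.0), featureCounts from Subread (1.6.2) and DESeq2 (1.20.0). Reads were mapped to mm10, and the authors deposited raw read counts per gene symbol. How strand and multiply mapped reads were handled in counting, and over which annotation, is not given in the sources used here. If strand was not used, reads of a gene and of an antisense neighbour cannot be told apart, and 2 symbols were entered more than once. A table of normalised counts, which the methods tie to DESeq2, was not used here.

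Raw counts were tested with edgeR (version 4.0.16, R 4.3.3). Genes were filtered with filterByExpr by genotype, libraries were scaled by TMM, and quasi-likelihood F-tests were run over all 11 libraries without a replicate block. P-values were adjusted by the Benjamini-Hochberg method over all 16574 genes tested, with a threshold of 0.05. All p-values of the report are from this test unless another is named, and intervals are 95% intervals of its coefficients. A slope per deleted copy was fitted in the same way. The code was tested on simulated data. Alternatives were RLE scaling, DESeq2 (1.42.0), no filter on low counts, the replicate number as a block, the library set as a covariate, only the libraries compared, and leaving out each library. The depth of 9239866 to 14632525 counts per library limits the precision of genes with few reads, and a count of 0 allows up to 3 counts (counting error only).

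Gene positions and exon lengths came from GENCODE M21, which matched 98.3% of the symbols, and promoters from RefSeq (GRCm38.p6). Levels of different genes were compared per exon length. The members and the lists of related and marker genes were chosen with earlier results of these data known. Genes named are the 10 flanking genes, the Taar genes, other genes within 2 Mb and related genes with an unadjusted p under 0.05, and the 3 genes most like each member. Any other was chosen after its values were seen. Some genes and 1 list that meet this rule are not reported here.

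Libraries of a genotype differed by more than counting noise, with a chi-square of at least 18.1 per degree of freedom for each pair. Replicate numbers come from the labels. The deviations of same-numbered homozygous and wild type libraries from their group means correlated at 0.326, 0.415 and 0.396 over genes, and the numbers were used as pairs. These libraries also share a library set number by number, and libraries of different numbers were not correlated. A pairing by number therefore cannot be told apart from the library sets. Counts of pairs with a lower homozygous library, and of genes below wild type within each set, were added after seeing the data. The deviations of heterozygous libraries correlated negatively with those of the same number in both other genotypes, from -0.585 to -0.188. In each case the heterozygous library belonged to the other library set.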

Additional observations from a re-analysis of the deposited data

Results flagged for a closer look

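Enpp3 in heterozygous replicate 4, at 32.3 CPM, lay far from the other 3 heterozygous libraries, which had 9.10 to 12.9 CPM. Its gap to the nearest of them was 0.837 of the whole range, above the limit that Dixon's test sets for groups of 4. It was the single such value among 20 groups of heterozygous or homozygous libraries examined, and chance gives about 1 in 20. The library belongs to set 1, in which Enpp3 ran from 12.9 to 33.6 CPM. Without it the log2 fold change of Enpp3 in heterozygous against wild type mice was -1.04 in place of -0.44. Without wild type replicate 1 it was -0.077, the other end of the range over single libraries.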

How the results depend on the processing

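Of 677 fold changes and slopes recomputed for the 10 genes, 605 kept their sign and 72 changed it, and 0 reached an adjusted p under 0.05. DESeq2 called 8 genes over the whole table in homozygous and 3 in heterozygous against wild type mice, 2 in homozygous against heterozygous mice and 2 for the slope, in place of 0 each, and the replicate block on homozygous and wild type libraries alone, added after seeing the data, called 39. Flanking genes with an unadjusted p under 0.05 numbered 1 with the library set as a covariate for each genotype against wild type and for the slope (Slc18b1 each time, against 6.83%, 4.55% and 7.06% of all genes), 2 with that added block (6.31% of all genes), and 0 to 1 when libraries were left out for heterozygous against wild type mice (Eya4 without heterozygous replicate 2, against 2.05% of all genes). The block over all libraries changed no call.

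Some signs changed under other settings. In homozygous against heterozygous mice Eya4 was -0.0032 with RLE scaling, -0.0022 with DESeq2 and -0.012 without the filter, and with the block over all libraries Slc18b1 was -0.025 and Moxd1 0.011. In homozygous against wild type mice Enpp1 was 0.014 with that block. With the library set Enpp1 was 0.026, Enpp3 0.027 and Med23 -0.024, and with the added block 0.067, 0.14 and -0.079. The library set also gave Med23 -0.0044 in heterozygous against wild type mice, Slc18b1 -0.0041 in homozygous against heterozygous mice, and slopes of 0.0048 for Enpp1, 0.022 for Enpp3 and -0.012 for Med23. The cause was not tested.

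Leaving out 1 library at a time changed the following signs. The range was, for homozygous against wild type Enpp3 -0.64 to 0.17, Med23 -0.10 to 0.45, Vnn3 -0.60 to 0.19, Moxd1 -0.22 to 0.062, Enpp1 -0.14 to 0.19, Eya4 -0.53 to 0.0081 and Akap7 -0.24 to 0.095. The range was, for heterozygous against wild type Enpp1 -0.019 to 0.32, Med23 -0.050 to 0.48, Vnn3 -0.44 to 0.35, Moxd1 -0.22 to 0.064, Eya4 -0.56 to 0.00053, Vnn1 -0.49 to 0.11 and Akap7 -0.23 to 0.12. The range was, for homozygous against heterozygous Eya4 -0.11 to 0.20, Med23 -0.21 to 0.12, Akap7 -0.11 to 0.094, Slc18b1 -0.13 to 0.13, Vnn1 -0.45 to 0.093, Moxd1 -0.13 to 0.12, Vnn3 -0.35 to 0.073 and Enpp3 -0.19 to 0.82. The range was, for the slope per deleted copy Enpp3 -0.32 to 0.11, Med23 -0.049 to 0.18, Vnn3 -0.29 to 0.055, Moxd1 -0.10 to 0.026, Enpp1 -0.080 to 0.058, Eya4 -0.23 to 0.0046 and Akap7 -0.11 to 0.036. An arm is left with at least 2 wild type or 3 other libraries. The slope cannot be fitted with 2 genotypes, and Vnn3 had no value in fits of homozygous libraries with a single other genotype, where it failed the filter. Vnn1 and Vnn3 had the fewest counts, and Enpp3, Med23 and Slc18b1 did not overlap between the sets of libraries.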

Other observations

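For each flanking gene the 3 tested genes outside the 10 with the most similar log2 CPM over the 11 libraries were listed, with Pearson's r as a measure of likeness. The libraries include both sets, so the measure holds the difference between the sets as well as any other. The genes most like Slc18b1 were Rfc5, Arhgap40 and Prss33 (r from 0.975 to 0.983), those most like Stx7 were Slc39a10, Exoc2 and Cep41 (0.971 to 0.991), and those most like Med23 were Ppp2r3d, Tbp and Cep63 (0.992 to 0.995). For Enpp3 they were Esrrg, Ehf and Mfsd4 (0.985 to 0.989). Ehf encodes a transcription factor of epithelia and Esrrg an orphan nuclear receptor.

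Eya4 was most like Hus1, Sp4 and Shprh (0.934 to 0.939), Akap7 was most like Zfp280d, Zfp770 and AW549877 (0.958 to 0.964), and Enpp1 was most like Cd109, Ltbp1 and Dync1li1 (0.934 to 0.954). Likeness was lower for Moxd1, with Frmd4a, Colgalt2 and Txnrd1 (0.843 to 0.912), for Vnn1, with Eml6, Dtna and Dmxl2 (0.888 to 0.908), and for Vnn3, with Acvr1c, A430078I02Rik and Cast (0.850 to 0.873). None of these genes lies within 2 Mb of the deleted interval. Flanking genes were left out of these lists, and the highest r between flanking genes was 0.809 (Eya4 and Akap7).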
